A study of Homo sapiens with 6 samples.

Results

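The ubiquitin conjugation and deubiquitination genes described here were 91 protein-coding genes with edited cytosines in HEK293T cells, a line derived from human embryonic kidney. They were chosen by name alone: every protein-coding gene with a listed edit whose symbol begins with UBE2 or FBXO, or with USP or CUL followed by a digit. They made up 91 of the 7684 genes with listed edits, or 91 of 7469 protein-coding genes, and consisted of 31 UBE2, 19 FBXO, 35 USP and 6 CUL genes. Of the 9831 isoforms with edits, 138 belonged to them.

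The study mapped the RNAs near RBFOX2, a splicing regulator that binds UGCAUG, by INSCRIBE, in which APOBEC1 fused to a nanobody against rabbit IgG (Apo1-Nb) converts cytosines of nearby RNA to uracils. RBFOX2-INSCRIBE (2 libraries, replicates 1 and 2) was methanol-fixed cells given a rabbit antibody to RBFOX2 and then Apo1-Nb. Enzyme-only (2 libraries, replicates 2 and 3) received Apo1-Nb without that antibody, and buffer-only (2 libraries, replicates 1 and 2) received neither. All 6 libraries were full-length PacBio libraries of rRNA-depleted RNA from 1 cell line, which the labels also write as HEK293XT. Nothing in the labels says that the libraries of a group came from separate cultures, so every p-value measures the spread between these libraries, which may be technical. The antibody marks where RBFOX2 was in fixed cells, and the measure, how many distinct Cs of a gene were edited, also depends on how many of its RNA molecules were read. Fewer molecules of an RNA and less editing of each therefore cannot be told apart.

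Ubiquitin is activated by an E1 enzyme, passed to an E2 conjugating enzyme (most UBE2 genes) and joined to a target protein with the help of an E3 ligase. In cullin-RING ligases, the largest E3 class, a cullin (CUL) is the scaffold, and F-box proteins (FBXO) bring targets to the SCF ligases built on CUL1. Ubiquitin-specific proteases (USP) remove ubiquitin again. The name rule also took genes with other roles: UBE2M and UBE2F conjugate NEDD8, UBE2V1 and UBE2V2 lack the catalytic cysteine and act as partners of UBE2N, USP18 removes ISG15, USP39 is a splicing factor without protease activity, and USP6NL is a GTPase-activating protein.

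The sequences around UGCAUG are shown first because they are where an effect of the antibody can be read from position within one RNA. UGCAUG occurred in the listed isoforms of 60 of the 91 genes (65.9%), against 58.1% of all 7457 protein-coding genes searched. These 60 genes held 120 UGCAUG sites, of which 66 lay in 3′ UTRs, 43 in coding sequence and 3 in 5′ UTRs, and 8 differed in region between isoforms or lay in non-coding isoforms. Windows of 30 bases of hg38 are given in the sense of the RNA, with UGCAUG in capitals, for sites with many edited Cs within 50 nt in the RBFOX2-INSCRIBE libraries, for USP24 and USP32, whose sites had no edit in any control, and, as a contrast, for CUL1. UBE2K (chr4:39778866-39778895, plus strand), UBE2D1 (chr10:58369643-58369672, plus), UBE2J1 (chr6:89327714-89327743, minus), FBXO28 (chr1:224158391-224158420, plus), USP32 (chr17:60178104-60178133, minus) and CUL1 (chr7:148800830-148800859, plus) are in 3′ UTRs. The UBE2V1 site (chr20:50081551-50081580, minus), the UBE2D3 site (chr4:102796842-102796871, minus) and the USP14 site (chr18:211659-211688, plus) are in the 3′ UTR of coding isoforms and also in an isoform without a coding sequence. USP24 (chr1:55092082-55092111, minus) carries its site in coding sequence.
UBE2K: ugugaauuuacuUGCAUGcuuguacuugac
UBE2V1: ccuugaauccggUGCAUGccuugguuuugg
UBE2D3: ugauguauuuuaUGCAUGucaauaaaggaa
UBE2D1: acucuaaaauuuUGCAUGaaaauuacaucc
UBE2J1: augugaucuuauUGCAUGuuuccauggggu
FBXO28: auguccuacauuUGCAUGgauggaugcaug
USP14: auuugcuguucuUGCAUGguucaaaccacc
USP24: ccauauuauccuUGCAUGgcaaaggugagc
USP32: uuuugcuuuguuUGCAUGuccacuaauuuu
CUL1: cgugccgagggcUGCAUGcuaccgcacuaa

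The files hold the edited fraction of reads at each position of each isoform without the numbers of reads, so depth is unknown and no counting interval was computed. Enzyme-only replicate 3 stood apart from replicate 2: it listed 2453 edited Cs in the 91 genes against 1145, and 153740 against 86019 over all genes. Each comparison with the enzyme-only group is therefore given with both libraries and with each alone. Paired values follow replicate order, and where groups are not named they come in the order RBFOX2-INSCRIBE, enzyme-only, buffer-only. Edits on the opposite strand, which read as G-to-A in the RNA, numbered between 36 and 56 for the 91 genes in the 6 libraries and were left out of all counts. Of the genes fixed as markers of HEK293T cells, KRT18, NEFM and NEFL were edited in all 6 libraries and VIM in 5, KRT8, PAX2 and NES were not listed, and none of 6 markers of blood, liver, fibroblast, macrophage or endothelial cells was listed.

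All 4 families carried more edited Cs with the RBFOX2 antibody than in either control. The 91 genes held 3183 and 3395 edited Cs with the antibody, 1145 and 2453 with enzyme alone and 1021 and 1011 in buffer. Written as editsC, the number of edited Cs per 100 Cs in the exons, this was 3.36% ± 0.153 (SD, n = 2) with the antibody, 1.84% ± 0.944 (SD, n = 2) in enzyme-only and 1.04% ± 0.00721 (SD, n = 2) in buffer-only. The RBFOX2-INSCRIBE mean was 1.83 times the enzyme-only mean, 2.87 times enzyme-only replicate 2 and 1.34 times enzyme-only replicate 3. Over all genes the corresponding ratios were 1.70, 2.36 and 1.32. Against buffer-only the ratio was 3.24 for the 91 genes and 2.82 for all genes.

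**Figure D1:**
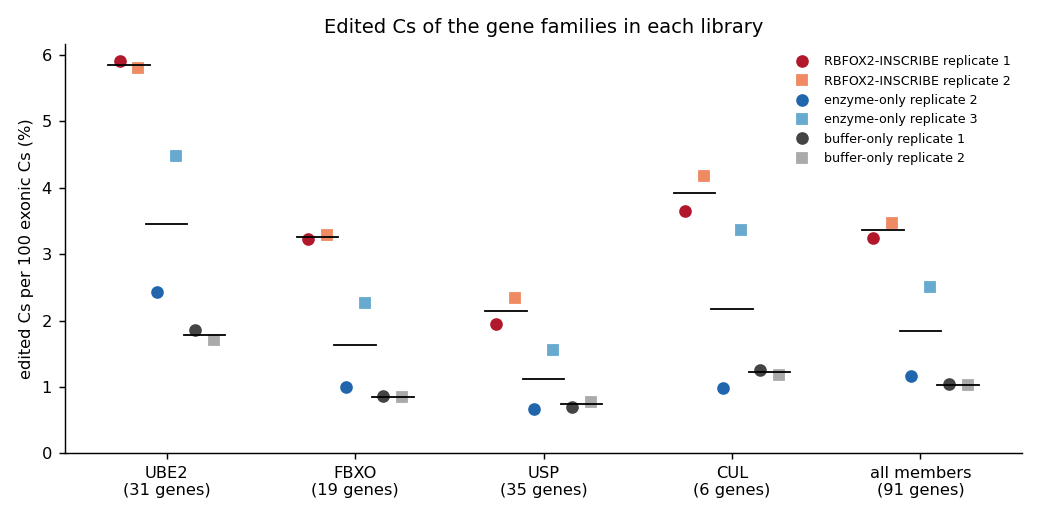
EditsC (edited Cs per 100 exonic Cs, y axis) of the 4 gene families and of all 91 genes together; each point is 1 library and each black line the mean of the 2 libraries of a group. Both RBFOX2-INSCRIBE libraries lie above all 4 control libraries in every family, and the enzyme-only libraries lie far apart (1.17% and 2.50% for all 91 genes).

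Per exonic C, the UBE2 genes were the most edited of the families and the USP genes the least. EditsC of the UBE2 genes was 5.90% and 5.80% in RBFOX2-INSCRIBE, 2.43% and 4.48% in enzyme-only and 1.86% and 1.70% in buffer-only. The FBXO genes had 3.22% and 3.28% with the antibody, 0.998% and 2.26% in enzyme-only and 0.857% and 0.848% in buffer-only. EditsC of the USP genes was 1.94% and 2.34%, then 0.668% and 1.56%, then 0.705% and 0.774% in the same order of groups. In every family the groups RBFOX2-INSCRIBE and enzyme-only did not overlap. The 6 cullins, with 3.66% and 4.18% in RBFOX2-INSCRIBE, came closest to enzyme-only replicate 3, at 3.36%, and their enzyme-only replicate 2, at 0.988%, lay below both buffer-only libraries, at 1.25% and 1.19%.

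Edited positions recurred more often between the RBFOX2-INSCRIBE libraries than between control libraries. The 2 RBFOX2-INSCRIBE libraries shared 789 edited positions of the 91 genes, 24.8% of the smaller library, the enzyme-only libraries shared 193 (16.9%) and the buffer-only libraries 69 (6.82%). A larger number of edited Cs makes sharing more likely, so these shares are a description, given without the shares over all genes. Of 9470 distinct positions, 7326 were seen in 1 library and none in all 6, the latter because the authors removed edits present in every sample. Of the positions in both RBFOX2-INSCRIBE libraries, 462 were in no control library, and 52 of these were in UBE2K, 32 in UBE2D3 and 28 in FBXO30. Both enzyme-only libraries and no other library shared 87 positions, and both buffer-only libraries and no other shared 38. Single edits were rare in the reads: the median edited fraction of the 91 genes was 0.667% and 0.671% in the RBFOX2-INSCRIBE libraries.

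What the antibody added to untargeted enzyme was tested gene by gene with limma on log2((edited Cs + 0.5) / exonic Cs). The fit took all 5088 genes whose mean reached 5 edited Cs, and every log2 difference given for a gene is on that scale. Of the 91 genes, 69 entered the test and none passed an adjusted p of 0.05. The lowest adjusted p among them was 0.151, and 16 of the 69 had an unadjusted p under 0.05, all higher with the antibody. Over all genes tested, 6 (0.118%) rose and none (0.0%) fell at an adjusted p under 0.05, and at an unadjusted p under 0.05, 16.3% were higher and 0.609% lower. The median log2 difference of the 69 genes was 1.03, against 0.85 over all genes tested. In 38 of the 69 genes the groups were separate, with both antibody libraries above both enzyme-only ones, and in 2, UBE2C and USP5, both lay below, where the shares over all genes tested were 51.8% and 3.56%. The share of genes with separate groups among the 69 was thus close to that of all genes. In 9 of the 69 genes the enzyme-only mean was itself under 5, so that these entered the test through the antibody libraries alone.

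The size of the difference depended on which enzyme-only library was used. Without replicate 3 the median log2 difference of the ubiquitin genes was 1.53, and without replicate 2 it was 0.37. At an adjusted p under 0.05, 29 of 69 genes passed without replicate 3, where 32.4% of all genes were higher and 0.626% lower, and none passed without replicate 2. Either fit leaves 1 enzyme-only library, which is assumed to vary like the RBFOX2-INSCRIBE pair, so these calls leave out the spread between the enzyme-only libraries. When each library was scaled to the same total of edited Cs, the median of all genes moved from 0.85 to 0.02 and that of the 69 genes from 1.03 to 0.22. In simulated data, library totals followed these data, but every gene had 1 fixed spread that was not estimated from them. There the test recovered no 2-fold change, 34.5% of 4-fold changes and 97% of 8-fold changes. Recovery at the real spread of the genes was not measured.

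**Figure D2:**
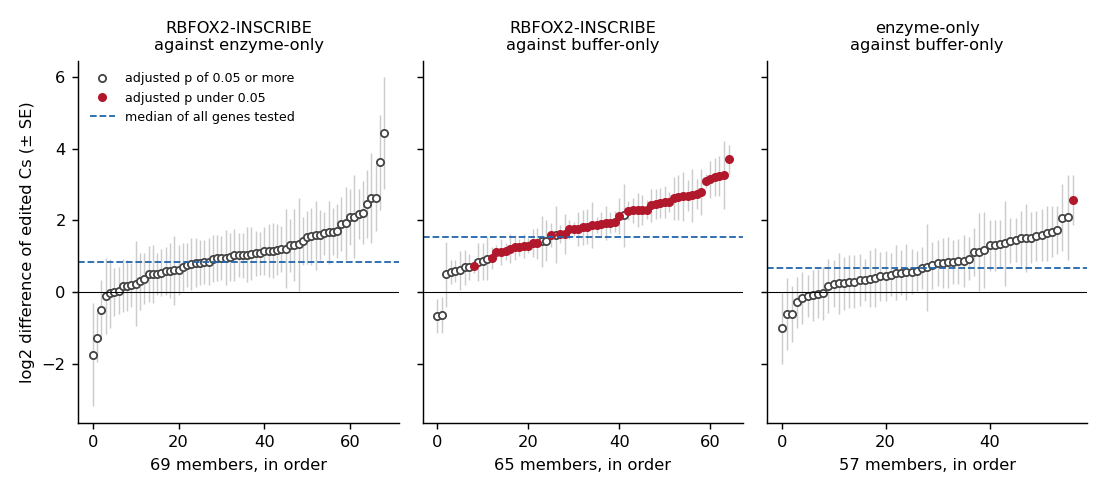
Log2 difference of edited Cs (y axis, ± SE) of each tested gene, in rising order, in the 3 comparisons, with filled points for an adjusted p under 0.05 and a dashed line at the median of all genes tested. No gene is filled in RBFOX2-INSCRIBE against enzyme-only, 50 of 65 are filled in RBFOX2-INSCRIBE against buffer-only and 1 of 57 in enzyme-only against buffer-only.

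Against buffer-only, most of the ubiquitin genes rose. Of 65 genes tested, 50 were higher at an adjusted p under 0.05 and none was lower, and over all 4804 genes tested 61.1% rose and 0.0624% fell. The median log2 difference was 1.81, against 1.54 over all genes. In 16 of the 65 genes, among them FBXO7, FBXO38, USP32 and USP46, the buffer-only mean was itself under 5. These entered the test through the antibody libraries alone, as did 1265 of all 4804 genes, so the filter had a part in their being higher. By family, 18 of 22 UBE2 genes, 10 of 13 FBXO genes, 18 of 25 USP genes and 4 of 5 cullins tested were higher. Both RBFOX2-INSCRIBE libraries exceeded both buffer-only libraries in 61 of 65 genes, where the share over all genes was 80.6%. They lay below in USP5 and UBE2O, where the share was 0.958%. UBE2O, a large enzyme with both E2 and E3 activity that is named here after its values were seen, had 11 and 11 edited Cs with the antibody and 20 and 15 in buffer-only. Leaving out RBFOX2-INSCRIBE replicate 1 or 2 kept the median at 1.81 and 1.95, with the remaining library above both buffer-only libraries in 61 of 64 and 60 of 62 genes, but no gene passed the threshold in these fits, where the lone library is assumed to vary like the buffer-only pair. Over all genes tested in these fits, the remaining library lay above both buffer-only libraries in 3984 of 4526 and 4098 of 4566. Scaling to equal totals left 1 gene past an adjusted p of 0.05, with 25 genes higher and 34 lower over all genes.

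Enzyme without antibody, compared with buffer-only, gave 1 call among these genes. Of 57 tested, 1 rose, UBE2C, and none fell, where 0.546% of all 4209 genes rose and 0.0% fell, and 11 of the 57 had an unadjusted p under 0.05, all higher, where 14.8% of all genes were higher and 0.285% lower. In 10 of the 57 genes, UBE2C with a mean of 1.5 among them, the buffer-only mean was itself under 5. These entered the test through the enzyme-only libraries alone, as did 720 of all 4209 genes, so the filter had a part in the UBE2C call. The median log2 difference was 0.69 in the 57 genes and 0.69 over all genes. Both enzyme-only libraries exceeded both buffer-only libraries in 23 genes, where the share over all genes was 44.4%, and lay below in CUL3 and UBE2O, where it was 1.31%.

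The UBE2 genes are taken first. UBE2K, which builds the ubiquitin chains that mark proteins for the proteasome, was the most edited of the 91 genes per exonic C in the RBFOX2-INSCRIBE libraries. It had 186 and 200 edited Cs with the antibody, 36 and 104 in enzyme-only and 23 and 21 in buffer-only, out of 820 exonic Cs. These numbers correspond to an editsC of 22.7% and 24.4%, then 4.39% and 12.7%, then 2.80% and 2.56%. The 3 groups did not overlap. The log2 difference from enzyme-only was 1.65 ± 0.60 (SE, adjusted p = 0.184) and that from buffer-only 3.10 ± 0.20 (SE, adjusted p = 0.000551).

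UBE2D1 and UBE2D3 are close relatives that serve many E3 ligases. UBE2D1 had 77 and 57 edited Cs with the antibody, 5 and 39 in enzyme-only and 7 and 3 in buffer-only. Its log2 difference from buffer-only, 3.70 ± 0.41 (SE, adjusted p = 0.000653), was the highest of the 65 genes tested. UBE2D3 had 133 and 182, 56 and 102, and 52 and 49 in the same order, the highest mean of the UBE2 genes over the 6 libraries, with a log2 difference of 1.04 ± 0.63 from enzyme-only (adjusted p = 0.347). In both genes the RBFOX2-INSCRIBE libraries exceeded all controls, by 1.61 on the log2 scale over buffer-only in UBE2D3 (adjusted p = 0.0018). Only uniquely assigned reads were used by the authors, and whether edits of these related genes went unlisted for that reason was not tested.

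UBE2V1 and UBE2V2, the partners of UBE2N in making chains used in signalling and DNA repair, were heavily edited in every group. UBE2V1 had 114 and 107 edited Cs with the antibody, 54 and 110 in enzyme-only and 58 and 44 in buffer-only, so enzyme-only replicate 3 lay within the RBFOX2-INSCRIBE range. UBE2V2 had 131 and 146, 42 and 100, and 38 and 43. The log2 difference from enzyme-only was 0.52 ± 0.59 (SE) for UBE2V1 and 1.09 ± 0.61 (SE) for UBE2V2, at adjusted p = 0.591 and 0.320. Both rose against buffer-only, by 1.12 and 1.76 (adjusted p = 0.00262 and 0.000674).

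UBE2G1, an E2 that works with cullin-RING ligases, had 114 and 103 edited Cs with the antibody, 36 and 77 in enzyme-only and 31 and 27 in buffer-only. UBE2J1, an E2 anchored in the endoplasmic reticulum, had 83 and 47, then 31 and 58, then 19 and 8, so that RBFOX2-INSCRIBE and enzyme-only overlapped. UBE2W, which attaches ubiquitin to protein amino termini, had 48 and 35, then 11 and 20, then 8 and 4, without overlap. All 3 rose against buffer-only, with log2 differences of 1.89, 2.29 and 2.75 (adjusted p = 0.000743, 0.00571 and 0.00172). None passed the threshold against enzyme-only (adjusted p = 0.343, 0.598 and 0.270).

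UBE2C, the E2 of the anaphase-promoting complex, had 6 and 3 edited Cs with the antibody, 12 and 10 in enzyme-only and 1 and 2 in buffer-only. Its log2 difference was -1.26 ± 0.68 (SE) for RBFOX2-INSCRIBE against enzyme-only (adjusted p = 0.305) and 2.57 for enzyme-only against buffer-only (adjusted p = 0.0371). The latter call was lost when any 1 of the 4 libraries was left out.

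**Figure D3:**
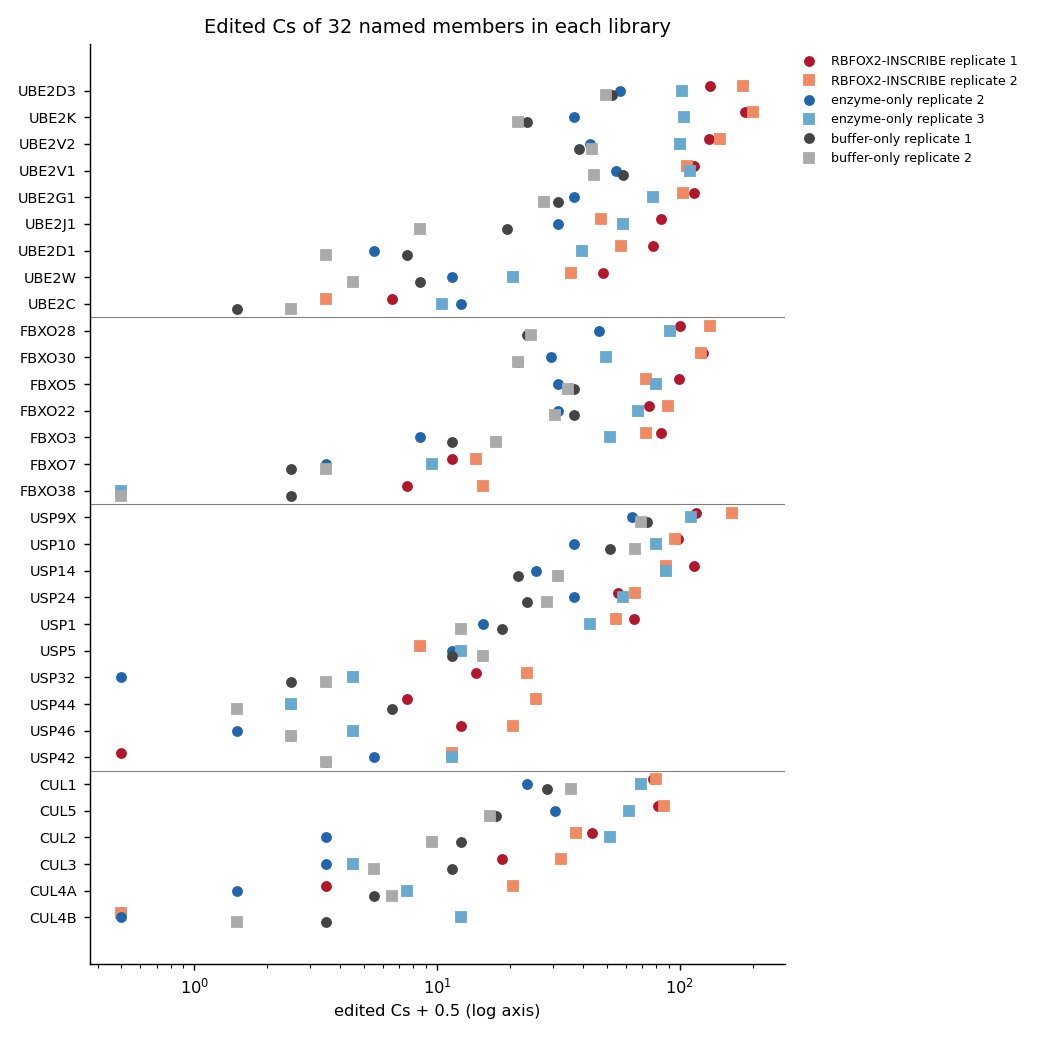
Edited Cs plus 0.5 (x axis, log scale) of the 32 named genes in each of the 6 libraries, grouped by family and ordered by their mean. UBE2K, UBE2W, FBXO30 and CUL3 show both RBFOX2-INSCRIBE points to the right of all control points, while UBE2C and USP5 show them to the left of both enzyme-only points.

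Among the FBXO genes, FBXO28, a nuclear F-box protein, and FBXO30 were the most edited. FBXO28 had 100 and 133 edited Cs with the antibody, 46 and 91 in enzyme-only and 23 and 24 in buffer-only. FBXO30 had 124 and 122, then 29 and 49, then 21 and 21, and its groups did not overlap. The log2 difference of FBXO30 from enzyme-only was 1.69 ± 0.66 (SE, unadjusted p = 0.0117, adjusted p = 0.205). Against buffer-only both rose, by 2.27 in FBXO28 and 2.52 in FBXO30 (adjusted p = 0.00072 and 0.000652).

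FBXO5, an inhibitor of the anaphase-promoting complex, had 99 and 72 edited Cs with the antibody, 31 and 79 in enzyme-only and 36 and 34 in buffer-only, with overlap between RBFOX2-INSCRIBE and enzyme-only. FBXO22, an F-box protein that targets histone demethylases, had 74 and 89, then 31 and 67, then 36 and 30. FBXO3 had 83 and 72, then 8 and 51, then 11 and 17. FBXO7, which is mutated in an early-onset parkinsonism, had few edits in every group, 11 and 14, then 3 and 9, then 2 and 3. All 4 rose against buffer-only, by 1.26, 1.29, 2.46 and 2.13 on the log2 scale, and none passed against enzyme-only.

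FBXO38, an F-box protein that targets the receptor PD-1, had 7 and 15 edited Cs with the antibody and was listed at 0 in both enzyme-only libraries, with 2 and 0 in buffer-only. No fold can be given against a group at 0. Its fitted log2 difference ranged from 3.50 with a pseudocount of 1 to 6.69 with a pseudocount of 0.1 and had an adjusted p of 0.172 with the 0.5 used here.

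The USP genes tested ran from -1.73 to 3.62 in log2 difference from enzyme-only. USP9X, a large deubiquitinase encoded on the X chromosome, had the highest mean number of edited Cs of the 91 genes, with 116 and 164 with the antibody, 63 and 111 with enzyme alone and 73 and 69 in buffer-only. USP10, which binds the stress granule protein G3BP1, had 98 and 95, then 36 and 79, then 51 and 65, so enzyme-only replicate 2 lay below buffer-only. USP14, a deubiquitinase bound to the proteasome, had 114 and 87, then 25 and 87, then 21 and 31, with 1 RBFOX2-INSCRIBE library at the value of enzyme-only replicate 3. Against buffer-only the log2 differences were 0.95, 0.74 and 1.94, and all 3 passed (adjusted p = 0.0264, 0.0161 and 0.00158).

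USP24 had 55 and 65 edited Cs with the antibody, 36 and 58 in enzyme-only and 23 and 28 in buffer-only. USP1, which removes ubiquitin from FANCD2 and PCNA in DNA repair, had 64 and 54, then 15 and 42, then 18 and 12. Both rose against buffer-only (adjusted p = 0.0301 and 0.00151), and of the pair only USP1 had separate antibody and enzyme-only groups.

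Of the 5 largest differences from enzyme-only among genes with separate groups, 3 were in less edited USP genes, beside FBXO38 and CUL3. The enzyme-only mean of all 5 was at most 3.5, so they reached the minimum mean of 5 only through the antibody libraries, and the filter had a part in which genes stand at this end. USP32, a membrane-bound deubiquitinase, had 14 and 23 edited Cs with the antibody, 0 and 4 in enzyme-only and 2 and 3 in buffer-only. USP46, which acts together with WDR48, had 12 and 20, then 1 and 4, then 2 and 2. USP44, a deubiquitinase of the spindle checkpoint, had 7 and 25, then 2 and 2, then 6 and 1. Their log2 differences from enzyme-only were 3.62 ± 1.32, 2.62 ± 1.25 and 2.47 ± 0.95 (SE), at adjusted p = 0.184, 0.273 and 0.199. Against buffer-only, USP32 and USP46 rose by 2.64 and 2.68 (adjusted p = 0.0102 and 0.0127), and USP44 did not pass (adjusted p = 0.0661).

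At the other end, USP5, which takes apart free ubiquitin chains, had 8 and 8 edited Cs with the antibody, 11 and 12 in enzyme-only and 11 and 15 in buffer-only. It was the only 1 of the 91 genes whose 2 RBFOX2-INSCRIBE libraries both lay below all 4 control libraries among those tested in both comparisons. Its log2 differences, -0.50 from enzyme-only and -0.65 from buffer-only, did not pass (adjusted p = 0.714 and 0.252). USP42, a nuclear deubiquitinase, had 0 and 11, then 5 and 11, then 3 and 3, and its RBFOX2-INSCRIBE libraries spanned the range of all controls.

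The cullins differed among themselves. CUL1, the scaffold of SCF ligases, had 77 and 79 edited Cs with the antibody, 23 and 69 in enzyme-only and 28 and 35 in buffer-only. CUL5, the scaffold that works with SOCS-box proteins, had 81 and 86, then 30 and 61, then 17 and 16. CUL3, which uses BTB proteins as adaptors, had 18 and 32, then 3 and 4, then 11 and 5. In all 3 the RBFOX2-INSCRIBE libraries lay above every control library, and in CUL3 the enzyme-only libraries lay below buffer-only. The log2 differences from enzyme-only were 0.96 ± 0.62, 0.96 ± 0.64 and 2.63 ± 0.93 (SE), with an adjusted p of 0.371, 0.387 and 0.174.

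CUL2, the scaffold of the VHL ligase, had 43 and 37 edited Cs with the antibody and 3 and 51 with enzyme alone, so that the antibody group lay between the 2 enzyme-only libraries, and 12 and 9 in buffer-only. CUL4A, one of the 2 paralogous scaffolds that bind DDB1, had 3 and 20, then 1 and 7, then 5 and 6. Its paralog CUL4B was listed at 0 in both RBFOX2-INSCRIBE libraries and in enzyme-only replicate 2, with 12 in enzyme-only replicate 3 and 3 and 1 in buffer-only, and had too few edits to be tested. CUL1, CUL2, CUL3 and CUL5 rose against buffer-only (adjusted p = 0.00222, 0.00382, 0.0404 and 0.000743) and CUL4A did not pass (adjusted p = 0.635).

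The other genes bring the account to all 91. Edited Cs were found in all 6 libraries for 68 genes and in 1 library for 4. The mean was under 1 edited C for 8 genes, among them FBXO32, USP45, USP51, UBE2H and USP6NL, and 22 genes were too sparsely edited to be tested against enzyme-only. The unadjusted p against enzyme-only was under 0.05 for UBE2D1, UBE2K and UBE2W, for FBXO3, FBXO30 and FBXO38, for CUL3 and for USP12, USP25, USP28, USP32, USP34, USP39, USP44, USP46 and USP48. The USP genes not given above ran from 0 to 78 edited Cs per library, the latter in USP31. USP7 was not analysed here.

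Edits close to UGCAUG were compared with edits elsewhere in the same set of genes, as 1 value per library. Within 50 nt of UGCAUG in the spliced isoform, 125 and 114 of 2469 Cs were edited with the antibody, 24 and 65 in enzyme-only and 28 and 31 in buffer-only. EditsC near the motif divided by editsC elsewhere was 1.58 and 1.34 with the antibody, 0.829 and 1.05 in enzyme-only and 1.09 and 1.22 in buffer-only. The RBFOX2-INSCRIBE libraries lay above all controls, but with a window of 25 nt they overlapped buffer-only. At 50 nt the RBFOX2-INSCRIBE mean exceeded that of enzyme-only by 0.522, with a two-sided exact permutation p = 0.33, the smallest that 2 against 2 libraries allow. Over all protein-coding genes the same ratio was 1.82 ± 0.0141 with the antibody, 1.04 ± 0.042 in enzyme-only and 0.984 ± 0.0352 in buffer-only (SD, n = 2).

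With the antibody, editing rose toward the motif. Within 25 nt of UGCAUG, editsC was 4.40% and 4.07% in RBFOX2-INSCRIBE, 0.669% and 1.50% in enzyme-only and 1.00% and 1.11% in buffer-only, counted over pairs of isoform and C. Between 201 and 500 nt from the motif it was 2.55% and 2.71%, then 0.865% and 1.84%, then 0.648% and 0.731%. The RBFOX2-INSCRIBE mean was 3.90 times the enzyme-only mean in the nearest interval and 1.95 times in the farthest, and over all protein-coding genes 3.20 and 1.87 times. Buffer-only was also higher in the nearest than in the farthest interval in the ubiquitin genes, which rests on 18 and 20 edited pairs.

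**Figure D4:**
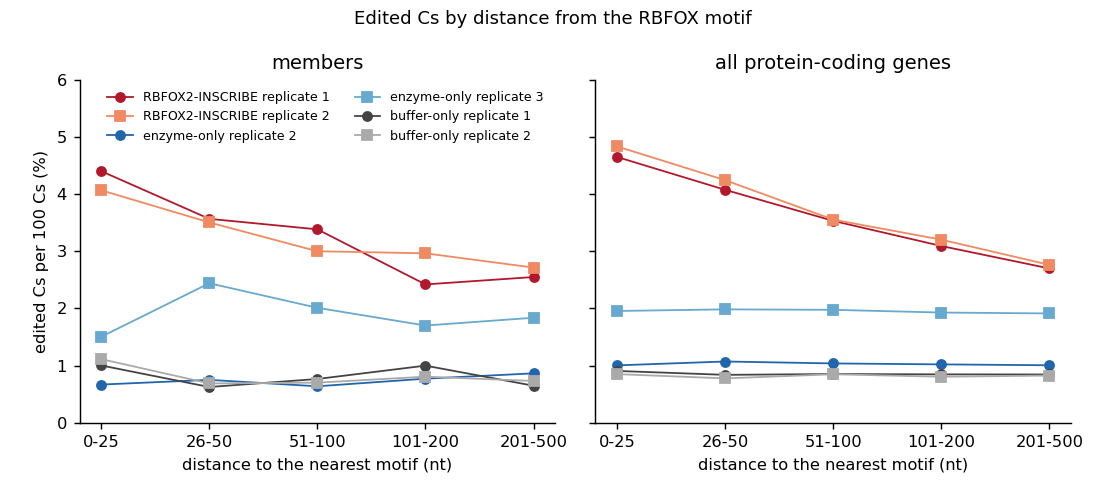
EditsC (y axis, edited pairs of isoform and C per 100 such pairs) against distance from the nearest UGCAUG in the spliced isoform (x axis, nt) in each library, for the 91 genes (left) and all protein-coding genes (right). In the 91 genes the RBFOX2-INSCRIBE lines fall from 4.40% and 4.07% within 25 nt to 2.55% and 2.71% at 201-500 nt, and enzyme-only stays below them at every distance.

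By family, the ratio with the antibody lay above all control libraries in the UBE2 genes and overlapped the controls in the other 3 families. The ratio of editsC near and away from UGCAUG was 2.11 and 1.88 in the UBE2 genes with the antibody, 0.588 and 0.917 in enzyme-only and 0.881 and 0.599 in buffer-only. In the USP genes it was 1.34 and 1.34, then 1.03 and 1.33, then 0.976 and 2.17, and in the FBXO genes 1.21 and 0.746, then 1.08 and 0.470, then 0.714 and 0.908. The cullins had 1.78 and 1.40 with the antibody, 1.18 and 2.51 in enzyme-only and 4.01 and 0.974 in buffer-only. These rest on at most 14 edited Cs per library near the motif. Differences between families were not tested.

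Single sites of the sequences above differed in how many nearby Cs were edited. Around the UBE2K site, 9 and 8 of 21 Cs within 50 nt were edited in RBFOX2-INSCRIBE, 1 and 3 in enzyme-only and none in buffer-only. Around the UBE2V1 site the numbers were 9 and 8 of 23 Cs, 1 and 3, and 3 and 1. For UBE2V1 as a whole gene the antibody and enzyme-only groups overlapped, while around this site they did not. The site was chosen for its many edits with the antibody, which favours separate groups, so this is a description. The UBE2D1 site, with 5 and 6 of 12 Cs with the antibody, 0 and 1 in enzyme-only and 1 and 1 in buffer-only, had edited fractions of up to 7.14% and 4%.

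The UBE2D3 site had 6 and 8 of 11 Cs edited with the antibody, 2 and 5 in enzyme-only and 1 and 0 in buffer-only. The UBE2J1 site had 6 and 4 of 29, then 0 and 2, then none. FBXO28 has 2 UGCAUG only 12 bases apart in the window shown, which share nearby Cs. Around the one in capitals 5 and 5 of 25 Cs were edited, then 2 and 1, then none. The USP14 site had 5 and 5 of 31, then 0 and 2, then 0 and 3. At each of these 4 sites the antibody and enzyme-only groups were separate, which their choice for many edits with the antibody favours.

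The USP24 site had 4 and 4 of 22 Cs edited with the antibody and none in any control. The USP32 site had 2 and 4 of 9 and none in any control, with fractions of up to 8.33% and 7.50%. With depth unknown, no editing and few molecules read cannot be told apart in the controls. CUL5 had 6 and 6 of 20 Cs edited near a site in coding sequence with the antibody, then 0 and 1, then 1 and 0. UBE2W had 8 and 7 of 19 Cs edited near a 3′ UTR site with the antibody, none in enzyme-only and 2 and 0 in buffer-only. Not every site behaved this way: the CUL1 site had 2 and 2 of 33, then 2 and 5, then 3 and 0, and over its 5 sites USP9X had 8 and 1, then 4 and 11, then 5 and 5.

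Over the 120 sites, both RBFOX2-INSCRIBE libraries had more edited Cs within 50 nt than both enzyme-only libraries at 23 (19.2%) and fewer at none. Over the 8707 UGCAUG sites of all protein-coding genes these shares were 16.4% and 0.689%. Edits in both RBFOX2-INSCRIBE libraries and in no control library were found at 6 of the 120 sites (5%), against 5.51% of all sites. Those 6 were the USP24 and USP32 sites shown, 2 further UBE2K sites and, named after their values were seen, a site each in FBXO21 and USP38. The 2 UBE2K sites overlap and had the same single edited C, so they are 1 observation. At 54 of the 120 sites no library had an edited C. The ubiquitin genes were thus close to the background of all genes in both counts. Of the 462 single positions edited in both RBFOX2-INSCRIBE libraries and in no control, 26 (5.63%) lay within 50 nt of UGCAUG. Of all Cs of the ubiquitin genes 2.52% do, and of all their edited Cs in the RBFOX2-INSCRIBE libraries 3.93% and 3.36%. Of the 87 shared by the enzyme-only libraries alone 1 (1.15%) lay that near, and of the 38 shared by the buffer-only libraries alone 1 (2.63%). No share over all genes is given for these positions.

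APOBEC1 is known to prefer a C preceded by A or U. Of the edited pairs of isoform and C in the 91 genes, 76.9% and 78.8% followed an A or a U in RBFOX2-INSCRIBE, 68.2% and 73.6% in enzyme-only and 46.6% and 42.3% in buffer-only, where 51.0% of all Cs of these isoforms do. The order of the groups was the same over all protein-coding genes, with 73.7% and 75.0%, then 62.0% and 69.3%, then 42.0% and 42.5%. The buffer-only libraries had G before the edited C most often, in 36.8% and 36.3%.

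Edits lay in 3′ UTRs more often in the libraries that received Apo1-Nb. The 3′ UTR share was 62.8% and 63.8% in RBFOX2-INSCRIBE, 58.0% and 59.3% in enzyme-only and 51.8% and 48.3% in buffer-only, and 46.6% of all Cs of the isoforms are in 3′ UTRs. The groups did not overlap. The coding share was 32.2% in both RBFOX2-INSCRIBE libraries, 33.8% and 34.6% in enzyme-only and 38.9% and 43.1% in buffer-only. Over all protein-coding genes the 3′ UTR share came in the same order, with 59.9% and 60.9%, then 50.1% and 54.3%, then 44.3% and 43.8%. Of all Cs of their isoforms 44.6% are in 3′ UTRs.

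**Figure D5:**
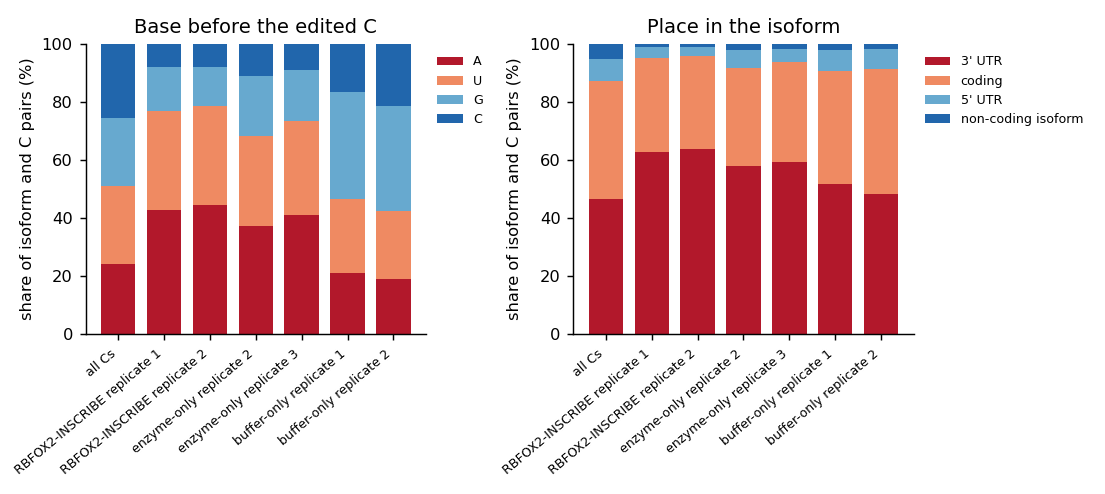
Share of edited pairs of isoform and C of the 91 genes (y axis, %) by the base before the C (left) and by place in the isoform (right), for all Cs of the isoforms and for each library. A and U together make up 76.9% and 78.8% in RBFOX2-INSCRIBE and 46.6% and 42.3% in buffer-only, and the 3′ UTR share falls in the same order from 62.8% and 63.8% to 51.8% and 48.3%.

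Isoforms were compared because each full-length read was assigned to 1 isoform, although an edited position can be listed under several. Of the 91 genes, 57 had 1 listed isoform. Of 138 isoforms, 85 reached a mean of 5 edited Cs and were tested against enzyme-only, and none passed an adjusted p of 0.05, with 17 at an unadjusted p under 0.05, all higher. Over all 5717 isoforms tested, 0.0525% rose and 0.0% fell, and at an unadjusted p under 0.05, 15.7% were higher and 0.56% lower. The median log2 difference in editsC was 1.05 in the 85 isoforms and 0.87 over all, and the antibody libraries both exceeded the enzyme-only pair in 48 and lay below it in 1, where the shares over all isoforms were 51.1% and 3.39%. Without enzyme-only replicate 3, 37 of 87 isoforms of these genes passed, all higher, against 31.7% higher and 0.574% lower of all isoforms, again with 1 enzyme-only library assumed to vary like the RBFOX2-INSCRIBE pair.

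UBE2D3 had the most isoforms with edits, 5. Its isoform ENST00000453744 had an editsC of 12.4% and 20.4% with the antibody, 5.40% and 10.5% in enzyme-only and 5.25% and 4.95% in buffer-only. A second coding isoform, ENST00000394801, had 10.8% and 8.86%, then 3.59% and 6.54%, then 2.32% and 2.95%. Both were higher with the antibody than in every control library. In UBE2V1, USP14 and USP9X nearly all edits fell on 1 isoform, with 106 and 104 edited Cs on ENST00000371674 of UBE2V1 and 10 and 4 on its second isoform in RBFOX2-INSCRIBE.

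Whether the antibody changed the balance between 2 isoforms of a gene was tested in 581 genes, of which none (0.0%) passed an adjusted p of 0.05 in limma and 28 had an unadjusted p under 0.05. The 14 ubiquitin genes among them included none with an unadjusted p under 0.05. For UBE2D3, USP9X, UBE2V1 and USP14 the difference in log2 difference between the isoforms was 0.08 ± 0.65, -0.02 ± 0.58, 0.47 ± 0.94 and 0.45 ± 0.71 (SE). These intervals are wide. In simulated data with the same fixed spread, not estimated from these libraries, the test recovered no 4-fold change of a pair and 96.7% of 16-fold changes.

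The other genes of the pathway, a fixed list of 63 ubiquitin precursors, E1 enzymes, cullin-RING partners, COP9 signalosome subunits, other deubiquitinases and HECT ligases, gave similar counts. Against enzyme-only, 40 were tested, none passed in either direction and the median log2 difference was 0.81. Both antibody libraries lay above both enzyme-only libraries in 24 and below in 1, where the shares over all genes were 51.8% and 3.56%. UCHL1, UCHL3 and UBB were lower with the antibody, with log2 differences of -2.59, -0.89 and -0.61 (adjusted p = 0.130, 0.436 and 0.546 in limma). Against buffer-only, 28 of 38 rose and none fell, with a median of 1.70. Over all genes tested 61.1% rose and 0.0624% fell, with a median of 1.54. Those that rose were 1 of 2 ubiquitin precursors, all 6 E1 enzymes tested, 9 of 10 cullin-RING partners, 5 of 8 COP9 signalosome subunits, 4 of 6 other deubiquitinases and 3 of 6 HECT ligases. ITCH, a HECT ligase, rose by 3.67 and UBA3, the catalytic E1 subunit for NEDD8, by 2.57 on the log2 scale (adjusted p = 0.000943 and 0.000565). In enzyme-only against buffer-only, none of 37 passed, with a median of 0.92, where 0.546% of all genes rose and their median was 0.69.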

How the data were processed

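The authors made consensus reads from PacBio Kinnex libraries, aligned them to hg38 with pbmm2, assigned them uniquely to isoforms with IsoQuant, called C-to-U edits, and removed edits present in all samples and dbSNP positions. The deposited values are, per isoform and position, the fraction of reads edited, and the numbers of reads are not given with them. The annotation release is not given in the sources used here; GENCODE release 44 was used.

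On-strand edited Cs were counted per gene, isoforms united, or per isoform. They were tested with limma 3.58.1 (R 4.3.3, trend and robust, Benjamini-Hochberg adjustment over all features tested) on log2((edited Cs + 0.5) / exonic Cs), with a minimum mean of 5. Isoform pairs were fitted without the trend, on the difference of that value between 2 isoforms. The limma steps were tested on simulated data with 1 fixed spread for every gene and 200 genes changed (100 isoform pairs). Motif ratios were compared by exact permutation (scipy 1.17.1). The title numbers the enzyme-only libraries 2 and 3 and another label 1 and 2, and the title's numbers are used. The genes, lists and tests were chosen with earlier results of these data known. Named genes were the 5 most edited of each family, those past the threshold, the 5 highest with separate groups, the 3 lowest, the 8 with most edits near UGCAUG, the 4 with most edits over 2 isoforms, and 9 well-known genes where listed. 1 gene that falls under this rule is not reported here. Alternatives changed the pseudocount, minimum, scaling, edit fraction, strand, groups in the fit, block, motif window and libraries.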

Additional observations from a re-analysis of the deposited data

How the results depend on the processing

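Leaving out single libraries mattered most. These fits keep 1 library in a group, which is assumed to vary like the pair of the other group. The number of the ubiquitin genes called in RBFOX2-INSCRIBE against enzyme-only ranged from 0 to 29, of isoforms from 0 to 37, of genes in RBFOX2-INSCRIBE against buffer-only from 0 to 40, and in enzyme-only against buffer-only it was 0. RBFOX2-INSCRIBE against buffer-only called 1 of 64 genes after scaling to equal totals, 12 of 31 with an edit fraction of at least 0.02 and 32 of 65 with all 3 groups in the fit. Over all genes the same settings called 25 of 4852, 641 of 1820 and 2074 of 4804 higher, and 34, 0 and 1 lower. Enzyme-only against buffer-only called 0 genes with a pseudocount of 1, a minimum of 1 or of 10, scaling, an edit fraction of at least 0.02 or a replicate block. With a replicate block the other counts were 0 against enzyme-only, 0 for isoforms, 0 for isoform pairs and 49 against buffer-only; the labels disagree on the enzyme-only numbers, the correlations of deviations were 0.11, 0.03 and -0.04, and the samples share only a number. Over all genes the replicate block called 27 rather than 6 higher against enzyme-only, and over isoforms 65 rather than 3. Against buffer-only the 49 were of 65 tested, and over all genes 2884 of 4804 were higher and 6 lower.

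The ratio near UGCAUG stayed higher with the antibody than in enzyme-only. The difference was 0.818 and 0.432 at 25 and 100 nt, 1.42 for edit fractions of at least 0.02, 0.236 for GCAUG, 0.58 in 3′ UTRs, and 0.404 to 0.641 without single libraries. It was 0.412 against the number expected within each gene, an alternative chosen after seeing the data. At 25 nt RBFOX2-INSCRIBE overlapped buffer-only, with 1.75 and 1.48 against 1.32 and 1.49. Against the number expected within each gene the values nearly met, with 1.398 and 1.192 in RBFOX2-INSCRIBE and 1.047 and 1.190 in buffer-only. Of 377 values of named genes under the alternatives, 10 changed sign and 21 were called, all without enzyme-only replicate 3, where the lone enzyme-only library is assumed to vary like the RBFOX2-INSCRIBE pair. After scaling the log2 difference was -0.0505 for FBXO5, -0.10 for USP9X, -0.43 for USP24, -0.26 for UBE2J1 and -0.30 for UBE2V1. For edit fractions of at least 0.02 it was -0.30 for CUL2, -1.26 for CUL5 and -0.39 for UBE2V1. Without single libraries, USP42 ranged from -3.99 (without RBFOX2-INSCRIBE replicate 2) to 0.53 (without replicate 1) and CUL2 from -0.35 (without enzyme-only replicate 2) to 3.53 (without replicate 3). The cause of these changes was not tested, and with depth unknown, scaling to equal totals cannot be told apart from removing an effect common to all genes.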
